A study of Mus musculus with 14 samples.

Results

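The Hoxb cluster on mouse chromosome 11 holds 10 homeobox genes, Hoxb1 to Hoxb9 and Hoxb13, and the contacts of their promoters were read from promoter-capture Hi-C (PCHi-C) lists of 14 libraries. PCHi-C cuts crosslinked chromatin with HindIII, ligates fragments that lie close to each other and pulls down ligation products that hold a promoter fragment (a bait). Hoxb pairs were those in which a bait fragment carries an annotated start site of a member, and 10 of the 22171 baits in the lists met this rule. Of the 10 genes, 9 had such a bait. Hoxb4 had none, because its only start site (chr11:96318267) lies on the unbaited fragment chr11:96317420-96321827, so Hoxb4 was seen only as a partner of other baits. Hoxb3 had 2 baits, Hoxb8 had 2, and 1 of the latter was shared with Hoxb7.

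Each library lists pairs of fragments with a CHiCAGO score, which is higher the less likely the read count of a pair is under a background model that declines with distance. All scores in the lists are 5 or more, and a pair that a library did not list was given 0, which means under the threshold and not absence of contact. The cells were cranial neural crest cells (CNCCs), the migratory cells that build the skeleton and connective tissue of the face. In wild-type Wnt1::Cre;ROSA RFP embryos, in which Cre marks cells of the Wnt1-expressing neural tube, RFP-positive CNCCs were sorted at E10.5 from 4 sites, the frontonasal process (FNP), both parts of the first arch, maxillary (Mx) and mandibular (Md), and the second pharyngeal arch (PA2), and at E12.5 and E14.5 from the pinna, the outer ear that arises from PA2. GFP-positive PA2 CNCCs of Hoxa2 EGFP/EGFP embryos, in which EGFP replaces Hoxa2, formed the knockout (KO) group at E10.5, and no Cre allele is named for those embryos. Embryos had a mixed C57Bl/6J;CD1 background and both sexes were pooled. Tissue was dissociated with trypsin at E10.5 and E12.5 and with papain at E14.5. Each of the 7 conditions had 2 libraries, which the paper describes as independent biological replicates. The labels do not say whether these came from separate litters, so p-values measure only the spread between libraries. FNP, Mx and Md are the Hox-negative populations (6 libraries), and PA2 and pinna are the Hoxa2-expressing ones (6 libraries). The lists hold no expression, so neither the genotype nor the cell type could be checked against transcripts.

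Hox genes encode transcription factors that set position along the body axis. Genes at the 3′ end of a cluster, such as Hoxb1 and Hoxb2, are switched on early and in the hindbrain and its neural crest, while genes at the 5′ end, such as Hoxb9 and Hoxb13, act later and more posteriorly. Where a Hox cluster is silent, it is commonly covered by Polycomb repressors and folds into a compact domain, and active genes tend to leave that domain.

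On build mm10, all members are on the plus strand, and the cluster runs from the start of Hoxb13 to the end of Hoxb1 (chr11:96194316-96368256, 174 kb). In this order the baits are Hoxb13 (chr11:96188425-96204408), Hoxb9 (chr11:96268840-96274400), Hoxb8 (chr11:96278714-96281905), the shared Hoxb7/Hoxb8 fragment (chr11:96281906-96290755), Hoxb6 (chr11:96290756-96295371), Hoxb5 (chr11:96302318-96304157), a 5′ and a 3′ Hoxb3 fragment (chr11:96321828-96327276 and chr11:96341262-96346956), Hoxb2 (chr11:96348585-96354229) and Hoxb1 (chr11:96365741-96369547). Beyond Hoxb13 is called the 5′ side, beyond Hoxb1 the 3′ side.

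Sequences of promoters and of recurrent partners are shown because the restriction map decides which promoter can be seen at all. Promoter sequences of 3 of the 10 members (Hoxb1, Hoxb4 and Hoxb8) were at hand, each with 250 bases before and 50 bases after the start site, from RefSeq on GRCm38.p6. In the 3 promoters, capitals mark the HindIII site AAGCTT, and each is read 5′ to 3′ on the plus strand.
Hoxb8 promoter (chr11:96281655-96281954): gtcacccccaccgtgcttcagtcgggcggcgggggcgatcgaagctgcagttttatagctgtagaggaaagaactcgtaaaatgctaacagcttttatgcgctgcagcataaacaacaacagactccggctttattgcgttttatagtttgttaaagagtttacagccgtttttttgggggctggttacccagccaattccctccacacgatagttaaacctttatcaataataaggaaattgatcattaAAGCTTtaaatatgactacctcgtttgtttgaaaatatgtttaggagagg
Hoxb4 promoter (chr11:96318017-96318316): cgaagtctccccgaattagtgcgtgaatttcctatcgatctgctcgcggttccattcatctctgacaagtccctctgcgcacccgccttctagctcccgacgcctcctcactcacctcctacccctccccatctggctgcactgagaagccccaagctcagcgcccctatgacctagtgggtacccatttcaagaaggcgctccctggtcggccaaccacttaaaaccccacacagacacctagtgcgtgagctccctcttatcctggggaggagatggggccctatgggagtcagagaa
Hoxb1 promoter (chr11:96365508-96365807): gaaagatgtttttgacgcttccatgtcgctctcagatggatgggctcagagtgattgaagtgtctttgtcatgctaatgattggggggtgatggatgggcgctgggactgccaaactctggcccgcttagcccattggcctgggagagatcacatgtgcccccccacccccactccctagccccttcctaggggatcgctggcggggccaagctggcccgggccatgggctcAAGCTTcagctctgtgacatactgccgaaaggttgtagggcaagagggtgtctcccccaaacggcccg
A HindIII site lies at bases 251 to 256 of the Hoxb8 promoter, so the start site of Hoxb8 is on the last base of one bait and its gene body is on the next. In the Hoxb1 promoter the site lies at bases 233 to 238, so the window is split between the Hoxb1 bait and the fragment before it. The Hoxb4 promoter has no site. Of 32851 promoter windows in the RefSeq table, 7.45% hold AAGCTT.

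The 3 further windows come from fragments that recur in the results. The first opens the fragment on the 3′ side with the highest scores, in Copz2, just after the HindIII cut. The other two lie on the 5′ side, in fragments that lost their listed pairs with Hoxb2 in Hoxa2-expressing libraries. Capitals mark a match to the core motif of CTCF, the factor that anchors many chromatin loops, in the window of the Gm11535 fragment, and a match to a Hox-Pbx motif in the other.
3′ partner in Copz2 (chr11:96859866-96860165): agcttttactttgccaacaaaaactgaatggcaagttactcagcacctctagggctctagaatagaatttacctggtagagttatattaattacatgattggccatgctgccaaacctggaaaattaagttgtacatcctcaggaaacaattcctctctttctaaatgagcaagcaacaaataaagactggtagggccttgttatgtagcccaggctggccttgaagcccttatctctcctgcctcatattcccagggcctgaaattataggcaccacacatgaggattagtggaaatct
Gm11535 fragment (chr11:96177544-96177843): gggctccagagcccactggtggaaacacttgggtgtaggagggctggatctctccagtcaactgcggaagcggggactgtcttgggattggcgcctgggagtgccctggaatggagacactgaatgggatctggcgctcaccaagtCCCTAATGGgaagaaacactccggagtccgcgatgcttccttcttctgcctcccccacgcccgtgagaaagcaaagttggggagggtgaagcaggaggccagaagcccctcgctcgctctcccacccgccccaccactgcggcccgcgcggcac
5′ partner next to Gm11535 (chr11:96176530-96176829): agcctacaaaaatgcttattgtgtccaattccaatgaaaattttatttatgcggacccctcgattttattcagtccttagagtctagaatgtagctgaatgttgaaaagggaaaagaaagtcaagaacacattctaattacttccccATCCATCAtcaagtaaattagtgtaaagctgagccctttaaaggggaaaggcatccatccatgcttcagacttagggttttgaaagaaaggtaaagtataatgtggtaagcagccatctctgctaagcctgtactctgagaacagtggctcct
The CTCF core was searched as CCANNAGGG on both strands, and its match on the minus strand at bases 147 to 155 was the only one in the 496-bp Gm11535 fragment. Of windows of that length on chromosome 11, 6.83% hold a match. The 1198-bp Copz2 fragment held none, against 15.6% of windows of its length. The Hox-Pbx motif TGATNNAT matched once in the 2161-bp 5′ partner, on the minus strand at bases 148 to 155 of the window shown, and 67.3% of windows of that length hold one. In the promoters, TGATNNAT matched at bases 240 to 247 of Hoxb8 and at bases 89 to 96 of Hoxb1, while AGGTCA, a motif bound by retinoic acid receptors, matched at bases 170 to 175 of Hoxb4. Of all promoter windows, 8.85% hold TGATNNAT and 16.3% hold AGGTCA. The TATA box TATAAA matched at 2 places in Hoxb8 (13.6% of promoter windows), and the Meis motif TGACAG (19.2%) matched in none of the 3. These matches are letters in a window and say nothing of binding.

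Over the 14 libraries the Hoxb baits had 4161 listed pairs, of which 1154 were distinct, 761 on chromosome 11 and 393 with other chromosomes. A set of 30 distinct pairs was listed in all 14 libraries. The libraries listed between 119370 and 499756 pairs in all, and interchromosomal pairs made up 2.64% to 5.61% of each list except in Md replicate 1 (46.5%) and E12.5 pinna replicate 2 (62.7%), the 2 libraries whose names say that they were merged. The comparison of interchromosomal pairs between the groups is given with and without these 2 libraries. Other counts include them where they belong to a group compared.

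Within the cluster, Hoxb baits were paired less often in Hoxa2-expressing than in Hox-negative CNCCs. FNP listed 84 and 71 pairs with both ends in the cluster, Mx 76 and 72, and Md 63 and 66. PA2 listed 59 and 63, the E12.5 pinna 60 and 27 and the E14.5 pinna 12 and 5. The range was thus 63 to 84 (median 71.5) in Hox-negative and 5 to 63 (median 43) in Hoxa2-expressing libraries, with the 2 groups touching only at 63. The means were 37.7 ± 26.2 and 72 ± 7.46 (SD, n = 6 each), and the difference of -34.3 had an exact two-sided permutation p of 0.00433. At E10.5 alone the difference was -11 (exact permutation p = 0.179). Hoxb2 alone had 10 to 17 of these pairs in Hox-negative libraries (mean 13.2) and 1 and 2 in PA2, a gap as large as that difference. The E10.5 totals therefore show no net deficit beyond this bait, but single baits moved both ways. The 3′ bait of Hoxb3 had 2 and 3 of these pairs in PA2, against 7 to 12 in Hox-negative libraries. Its 5′ bait had 9 and 10 against 3 to 9, and Hoxb6 had 5 and 8 against 2 to 5. The later pinna has no Hox-negative counterpart of its age, so tissue and stage cannot be told apart in the comparison of all 12 libraries. Per 100000 same-chromosome pairs listed, the difference was -19.7 (exact permutation p = 0.0671).

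On the 5′ side the contacts of Hoxb baits were fewer in all Hoxa2-expressing libraries than in any Hox-negative one. FNP listed 48 and 41 pairs within 2 Mb of the cluster, Mx 44 and 41, and Md 38 and 36. PA2 listed 33 and 31, the E12.5 pinna 22 and 14, and the E14.5 pinna 1 and 0. The groups did not overlap, and the means were 16.8 ± 14.4 against 41.3 ± 4.27 (SD, n = 6 each; exact two-sided permutation p = 0.00216, the smallest that the design allows). Hoxb2 alone gave 7 to 10 of these pairs in each Hox-negative library and 0 in each Hoxa2-expressing one. Md replicate 2, the lowest Hox-negative library (36), held 7 pairs of Hoxb2, so without this bait the groups would overlap through PA2. At E10.5 alone the difference was -9.33 (exact permutation p = 0.0714, with 28 groupings). If the 6 wild-type populations are kept whole, only 10 splits exist and no p under 0.1 is possible, which holds for each comparison of these 6 libraries with the other 6.

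The 3′ side behaved differently. It took the largest share of same-chromosome pairs in each library, with 161 and 177 in FNP, 118 and 151 in Mx, 145 and 198 in Md, 171 and 185 in PA2, 175 and 167 in the E12.5 pinna and 186 and 242 in the E14.5 pinna. The groups overlapped widely, with means of 187.7 ± 27.7 in Hoxa2-expressing and 158.3 ± 27.5 in Hox-negative libraries (SD, n = 6 each; exact permutation p = 0.0931). Per 100000 same-chromosome pairs listed, the difference was 22.7 (exact permutation p = 0.0411), and the summed score of these pairs was higher by 299.9 (exact permutation p = 0.0433). As a share of all Hoxb pairs on the chromosome, the 3′ side made up 48.0% to 64.5% (median 56.4%) in Hox-negative and 64.0% to 98.0% (median 72.4%) in Hoxa2-expressing libraries. The means of this share were 56.7% ± 5.71 and 77.6% ± 14.8 (SD, n = 6 each; exact permutation p = 0.00433), and at E10.5 alone the share differed by 8.04 percentage points (exact permutation p = 0.143). Over all distances the number of same-chromosome pairs was 278 ± 25.3 in Hox-negative and 245.2 ± 31.9 in Hoxa2-expressing libraries (SD, n = 6 each; exact permutation p = 0.0844), and this call depended on the library set (p = 0.0455 without PA2 replicate 2, also exact).

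**Figure D1:**
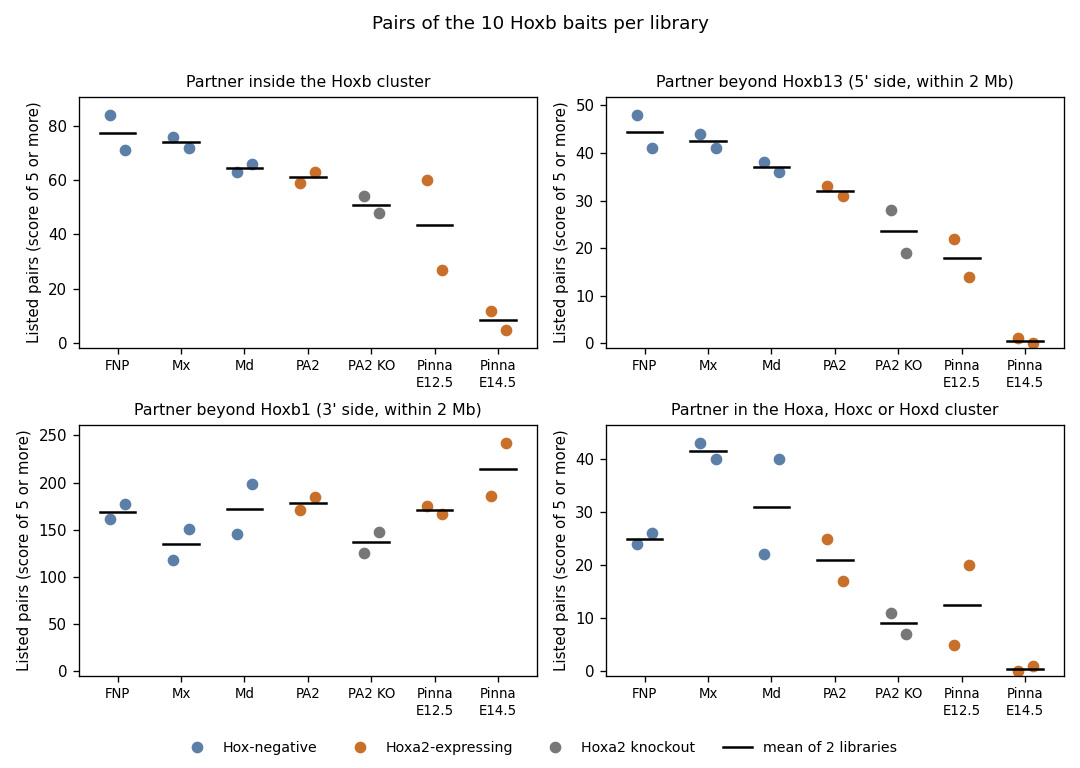
Number of listed pairs (score of 5 or more) of the 10 Hoxb baits in each library, by where the partner lies; points are libraries, black lines are means of 2 libraries and colours are the Hox-negative, Hoxa2-expressing and KO groups. Pairs inside the cluster and on the 5′ side are lowest in the E14.5 pinna (12 and 5, and 1 and 0), where the 3′ side reaches 186 and 242.

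Among the 10 baits, the largest difference in same-chromosome pairs between the groups was that of Hoxb2 (-20.5). Hoxb2, which helps to pattern the hindbrain segments next to PA2 and the neural crest they release, had 30 and 39 same-chromosome pairs in FNP, 26 and 27 in Mx and 32 and 19 in Md. It had 8 and 14 in PA2, 11 and 6 in the E12.5 pinna and 6 and 5 in the E14.5 pinna. No Hoxa2-expressing library reached the lowest Hox-negative one, and the means were 8.33 ± 3.50 and 28.8 ± 6.68 (SD, n = 6 each; exact permutation p = 0.00216). The 2 KO libraries had 5 and 3. On the 5′ side Hoxb2 had 7 to 10 pairs in each Hox-negative library and 0 in each of the other 8 libraries. Within the cluster it had 10 to 17 in Hox-negative and 0 to 3 in Hoxa2-expressing libraries. Its pairs on the 3′ side did not follow, with 2 to 12 (median 6.5) in Hox-negative and 4 to 12 (median 6) in Hoxa2-expressing libraries.

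The 3′ bait of Hoxb3, a gene of the hindbrain and pharyngeal arches, resembled Hoxb2 in part. It had 20 to 28 pairs (median 23.5) in Hox-negative libraries, 7 and 8 in PA2, 26 and 15 in the E12.5 pinna and 3 and 5 in the E14.5 pinna. The groups overlapped through the E12.5 pinna, and the means were 24 ± 3.03 and 10.7 ± 8.55 (SD, n = 6 each; exact permutation p = 0.0108). The 5′ bait of Hoxb3, from its most upstream start site, had 10 to 24 pairs in Hox-negative and 11 to 31 in Hoxa2-expressing libraries (exact permutation p = 0.418, n = 6 each). At E10.5 this bait had more pairs in PA2 (25 and 31) than in any Hox-negative library. Hoxb1, which gives the hindbrain segment that feeds PA2 its identity, had 8 to 22 pairs in Hox-negative and 6 to 20 in Hoxa2-expressing libraries (exact permutation p = 0.537, n = 6 each).

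Of the middle genes, Hoxb6, known from the lateral mesoderm, had more pairs in Hoxa2-expressing CNCCs. It had 12 and 14 in FNP, 13 and 18 in Mx and 16 and 8 in Md, against 19 and 33 in PA2, 19 and 10 in the E12.5 pinna and 25 and 33 in the E14.5 pinna. The groups overlapped, with means of 13.5 ± 3.45 and 23.2 ± 9.0 (SD, n = 6 each; exact permutation p = 0.0411), and with permutation within replicate number the exact p was 0.055. Its pairs on the 3′ side were 4 to 9 in Hox-negative and 9 to 33 in Hoxa2-expressing libraries. Hoxb5, which acts in the enteric neural crest, had 9 to 18 and 8 to 19 pairs (exact permutation p = 0.563, n = 6 each). The Hoxb8 bait, with the start site of a gene best known from blood progenitors and the spinal cord, had the most pairs of all, 61 to 101 in Hox-negative and 57 to 85 in Hoxa2-expressing libraries (exact permutation p = 0.818, n = 6 each). The shared Hoxb7/Hoxb8 bait had 29 to 74 and 46 to 64 (exact permutation p = 0.797, n = 6 each).

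The totals of the 2 posterior genes overlapped between the groups. Hoxb9, a patterning gene of the thoracic skeleton, had 19 to 30 pairs in Hox-negative and 15 to 29 in Hoxa2-expressing libraries (exact permutation p = 0.331, n = 6 each). Hoxb13, a gene of the tail and prostate, had 27 to 44 and 2 to 35, with means of 33.8 and 21.2 (exact permutation p = 0.0909, n = 6 each, and 0.0346 without PA2 replicate 2). The low values of Hoxb13 were those of the E14.5 pinna (6 and 2). Hoxb13 pairs within the cluster numbered 22 to 30 in Hox-negative libraries, 22 and 24 in PA2, 25 and 16 in the E12.5 pinna and 5 and 1 in the E14.5 pinna.

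Read against all baits, 3 of the 10 Hoxb baits had an exact p under 0.05, compared with 9.65% of 22166 baits tested. Lower values made up 2 of these 3, compared with 5.55% of all baits. Non-overlapping groups were found for 1 bait, Hoxb2, against 0.69% of all baits in either direction and 0.447% lower. After Benjamini-Hochberg adjustment over all baits, 0 baits in the genome passed an adjusted p of 0.05 (0% of 22166, with 2139 at an unadjusted exact p under 0.05), and the adjusted permutation p of Hoxb2 was 0.314, that of the 3′ bait of Hoxb3 0.394 and that of Hoxb6 0.491. With E10.5 libraries alone, PA2 did not overlap FNP, Mx and Md for 4 of the 10 baits, against 5.6% of 22137 baits. These were Hoxb2 (mean 11 against 28.8), the 3′ bait of Hoxb3 (7.5 against 24), the 5′ bait of Hoxb3 (28 against 16.5) and Hoxb6 (26 against 13.5), each with an exact permutation p of 0.0357, the smallest possible. The 10 baits share partner fragments and libraries and are not independent.

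**Figure D2:**
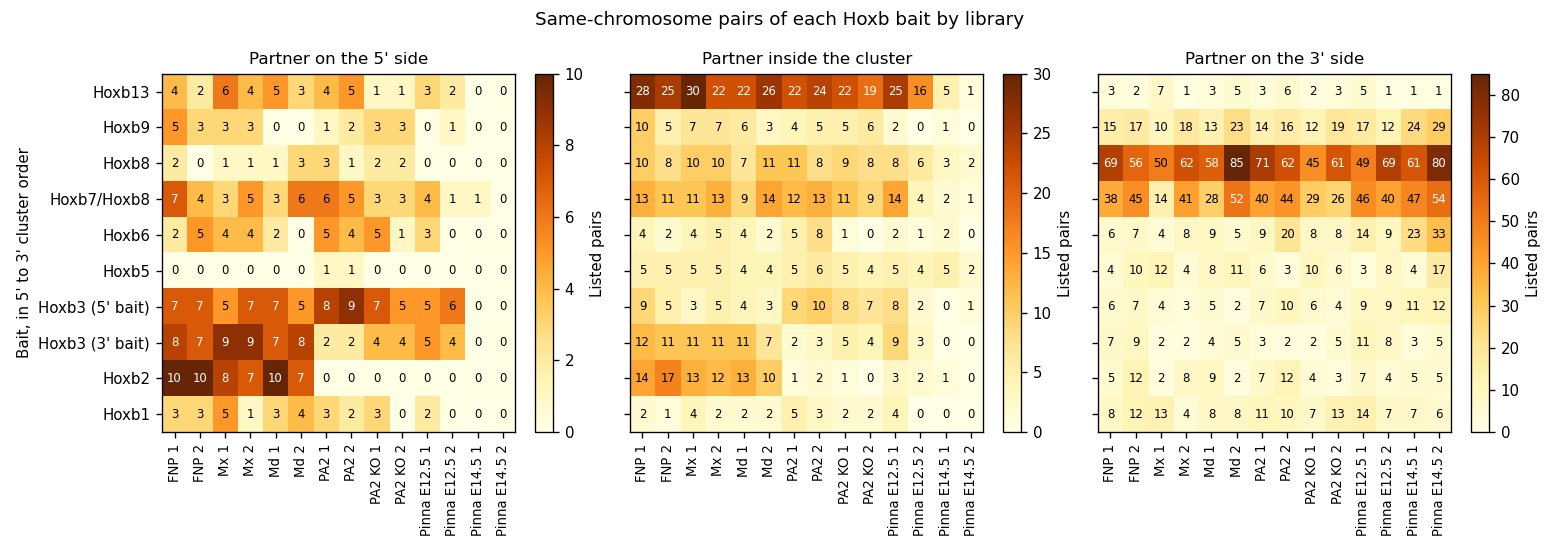
Number of listed same-chromosome pairs of each Hoxb bait (rows, from Hoxb13 to Hoxb1) in each library (columns), with the partner on the 5′ side, inside the cluster or on the 3′ side; each panel has its own colour scale and the number is printed in each cell. Hoxb2 has 7 to 10 pairs on the 5′ side in Hox-negative libraries and 0 in the other 8, while the Hoxb8 bait has 45 to 85 pairs on the 3′ side in all 14.

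Single pairs were compared as well. All pairs in the genome that were listed in at least 2 of the 12 wild-type libraries were compared with limma on the asinh of the score, which acts like a logarithm for high scores and keeps 0 at 0. Past an adjusted p of 0.05 were 4 of the 568 Hoxb pairs tested (0.704%), compared with 0.0234% of 286702 pairs tested. At an unadjusted p under 0.05 were 87 Hoxb pairs (15.3%, 65 lower and 22 higher in Hoxa2-expressing libraries), compared with 6.49% of all pairs. By place, 36 of 104 tested pairs within the cluster were lower and 1 was higher at that threshold, 14 of 58 on the 5′ side were lower and 0 higher, and 5 of 324 on the 3′ side were lower and 20 higher. Some of the lower pairs, among them several of Hoxb2, were listed only in Hox-negative libraries and met the filter through the group in which they are high. Many pairs also share a bait, and the split by direction over all pairs is not given here. These counts by place therefore add no support to the library counts.

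All 4 called pairs joined Hoxb2 to fragments just beyond Hoxb13, 3 without a gene and 1 with the start site of Gm11535, a gene of no known role. With the fragment chr11:96175369-96177529, whose Hox-Pbx window is shown above, Hoxb2 scored 12.39 and 10.82 in FNP, 9.05 and 10.46 in Mx and 14.18 and 12.03 in Md, and was unlisted in the other 8 libraries. The difference was -3.13 ± 0.514 on the asinh scale (SE; limma adjusted p = 0.0235). The neighbouring fragment chr11:96168916-96175368 scored 8.44 to 12.75 in the 6 Hox-negative libraries (difference -3.02, limma adjusted p = 0.0337). The fragment chr11:96186567-96187352 scored 8.13 to 11.23 (difference -2.99, limma adjusted p = 0.0391). The 496-bp Gm11535 fragment with the CTCF core match, chr11:96177530-96178025, scored 6.74 to 12.25 (difference -2.94, limma adjusted p = 0.0474). All 4 pairs share 1 bait, lie in 1 stretch and met the filter of 2 libraries only through the Hox-negative group in which they are high, so their p-values add no support to the counts of Hoxb2. Of the 4, 0 passed when any 1 of the 6 Hox-negative libraries was left out.

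The same upstream fragments kept other Hoxb partners. With chr11:96175369-96177529 the 5′ bait of Hoxb3 scored 6.24 to 11.06 in Hox-negative libraries, 14.05 and 14.74 in PA2, 10.06 and 8.99 in KO PA2 and 11.73 and 8.35 in the E12.5 pinna, and was unlisted at E14.5. The 3′ bait of Hoxb3 scored 9.4 to 16.14 with it in Hox-negative libraries and 5.9 and 5.11 in PA2. Hoxb3 was thus still listed with this fragment in PA2 from both of its baits, and Hoxb2 was not.

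**Figure D3:**
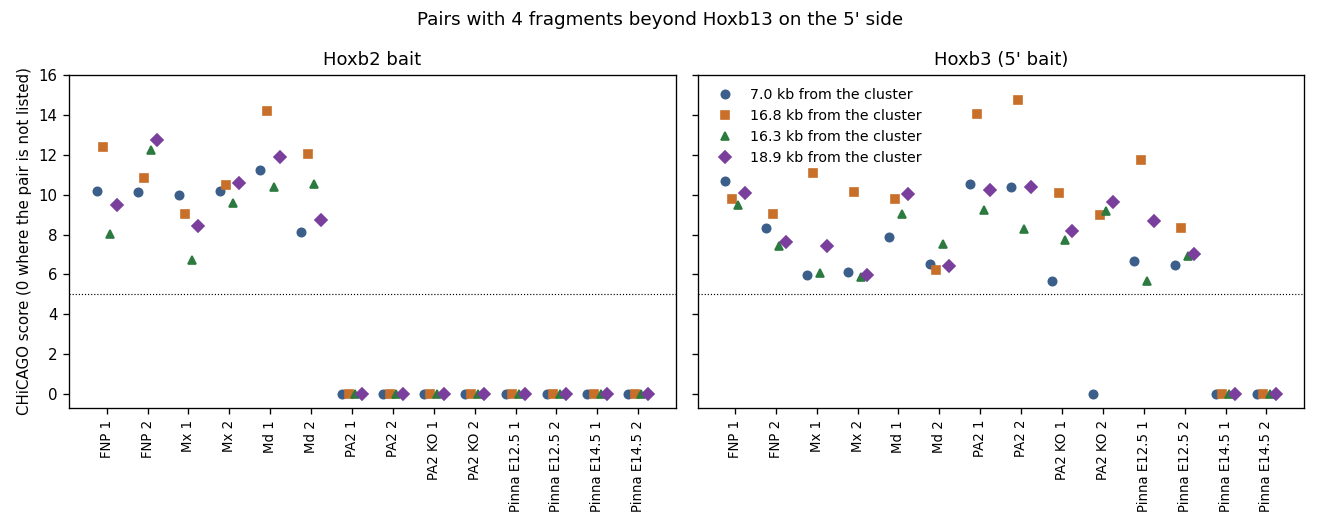
CHiCAGO score of the Hoxb2 bait (left) and the 5′ bait of Hoxb3 (right) with 4 fragments on the 5′ side of the cluster, by library; each symbol is a fragment, the legend gives its distance from the cluster, and the dotted line is the listing threshold of 5. Hoxb2 is listed with all 4 fragments in the 6 Hox-negative libraries and with none in the other 8, while the 5′ bait of Hoxb3 is unlisted with all 4 only in the E14.5 pinna.

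At E10.5, stage was held constant by comparing PA2 with FNP, Mx and Md in a limma fit of all 14 libraries, on pairs listed in at least 4 of them. Of 388 Hoxb pairs, 4 passed (1.03%), compared with 0.227% of 161898 pairs tested. Lower in PA2 were Hoxb2 with chr11:96175369-96177529 (-3.13, limma adjusted p = 0.0364) and the 3′ bait of Hoxb3 with chr11:96168916-96175368 (-2.90, limma adjusted p = 0.0356) and chr11:96178026-96181670 (-2.75, limma adjusted p = 0.0485). Higher was 1 pair, between the 5′ bait of Hoxb3 and an internal Hoxb3 start site on chr11:96337395-96341254, which scored 5.57 and 6.13 in PA2, 5.48 and 5.47 in KO PA2 and was unlisted in the other 10 libraries (2.47, limma adjusted p = 0.0256), so that it met the filter of 4 libraries only through PA2 of both genotypes. None of the 3 lower pairs would have met it without the Hox-negative libraries in which they are high. The first was listed in no other library, the second only in the E12.5 pinna besides (5.93 and 5.33) and the third only in KO PA2 besides (6.28 and 6.45). None of these 4 passed with the replicate number as a block, with the score capped at 20 or after quantile normalization.

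Within the cluster, a minority of pairs recurred in nearly all libraries. Of 127 distinct pairs within the cluster, 17 were listed in at least 12 libraries and 3 in all 14. Hoxb5 with the Hoxb8 bait scored 7.11 to 15.5, Hoxb5 with the Hoxb7/Hoxb8 bait 7.05 to 13.41, and the Hoxb8 bait with the fragment of Mir10a, a microRNA gene of the cluster, 5.99 to 14.02. The highest mean score belonged to a longer pair, Hoxb13 with Mir10a, at 21.34 and 14.55 in FNP, 15.85 and 11.4 in Mx, 14.65 and 14.29 in Md, 13.85 and 15.76 in PA2, 17.24 and 11.3 in the E12.5 pinna and 8.79 in 1 of the 2 E14.5 libraries. Hoxb13 and Mir10a lie 119.3 kb apart, so this pair spans most of the cluster. Pairs between 2 Hoxb baits numbered 27 in all, with 16 to 23 in Hox-negative libraries, 17 and 19 in PA2, 20 and 11 in the E12.5 pinna and 7 and 2 in the E14.5 pinna.

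Hoxb4, a gene of the hindbrain and of blood stem cells, had no bait, but its fragment was a partner. It was listed with Hoxb13 in 12 libraries, at 8.1 and 6.29 in FNP, 7.49 and 7.03 in Mx, 6.01 and 5.67 in Md, 9.23 and 9.31 in PA2, 5.97 and 5.41 in KO PA2 and 7.06 and 5.16 in the E12.5 pinna. The E14.5 pinna was the only condition without this pair. The Hoxb4 fragment was further listed with the Hoxb7/Hoxb8 bait in 5 libraries, at 5.02 to 5.87.

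Outside the cluster, Hoxb baits were paired with 162 fragments of chromosome 11, and these were unevenly placed. The 3′ side within 2 Mb held 114 of them, and 30 of these were listed in all 14 libraries. The 5′ side held 29, with 0 in all 14 libraries and at most 13. Of the 162, 40 carried a start site and 29 were seen in 1 library only.

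The strongest 3′ partner was the 1198-bp fragment in Copz2, the gene of a coat protein subunit of transport vesicles, 491.6 kb beyond the cluster (chr11:96859866-96861063). All 10 baits were listed with it in at least 1 library, and the 91 listings had a mean score of 14.9. The Hoxb8 bait scored 35.93 and 27.38 with it in FNP, 29.92 and 35.23 in Mx, 24.85 and 27.59 in Md, 44.84 and 34.32 in PA2, 24.9 and 26.89 in KO PA2, 34.14 and 54.19 in the E12.5 pinna and 24.17 and 38.13 in the E14.5 pinna. Both KO scores lay below both PA2 scores, while those of Md and the E14.5 pinna overlapped KO. The Hoxb7/Hoxb8 bait (12.87 to 37.98) and Hoxb9 (5.86 to 16.94) were also listed with it in all 14 libraries, while Hoxb13, the most distant bait, was listed in 2.

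The next partners in rank were the baits of Copz2 and Mir152 (478.8 kb from the cluster, mean score 11.5) and of Cbx1, the gene of a heterochromatin protein (417.7 kb, mean score 11.4). They were followed by a fragment of Copz2 and Gm11523 (492.8 kb), the bait of Snx11, the gene of a sorting nexin (408.5 kb), another Copz2 fragment (488.6 kb), a fragment in the T cell adaptor gene Skap1 (251.3 kb), a further Copz2 fragment (487.0 kb), a further Skap1 fragment (248.8 kb) and the bait of Nfe2l1, the gene of a transcription factor that controls proteasome genes (461.5 kb). Each of these 10 was listed in all 14 libraries.

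By gene, 14 of 18 neighbours on the 3′ side had a Hoxb pair in at least 1 library, 13 in at least 2, and Skap1, Snx11, Cbx1, Nfe2l1 and Copz2 in all 14. Skap1, the long gene that follows the cluster, held 80 to 148 pairs per library. Sp2, the gene of a zinc finger factor further out, had pairs in 10 libraries, with 0 to 2 in each wild-type E10.5 library, 1 and 3 in KO PA2, 4 and 2 in the E12.5 pinna and 5 and 7 in the E14.5 pinna. On the 5′ side 5 of 15 neighbours had a pair (Prac1, in that list, was not found in the annotation), 4 of them in at least 2 libraries. B4galnt2, the gene of a glycosyltransferase, was listed in 9 libraries and Zfp652, the gene of a zinc finger protein, in 8, with 0 pairs of either at E14.5. Ttll6 was listed in 1 library.

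By distance, pairs on the 3′ side began close to Hoxb1, were missing from fragments that start 25 to 150 kb away in all libraries, and were densest over Skap1 and around Copz2. The median distance was 249 to 279 kb in the 12 libraries of E10.5 and E12.5, and 361 and 348 kb in the E14.5 pinna. Between 500 and 1000 kb, E10.5 libraries listed 3 to 17 pairs, the E12.5 pinna 27 and 23 and the E14.5 pinna 32 and 38. All 4 pinna libraries were above every E10.5 library in this window.

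**Figure D4:**
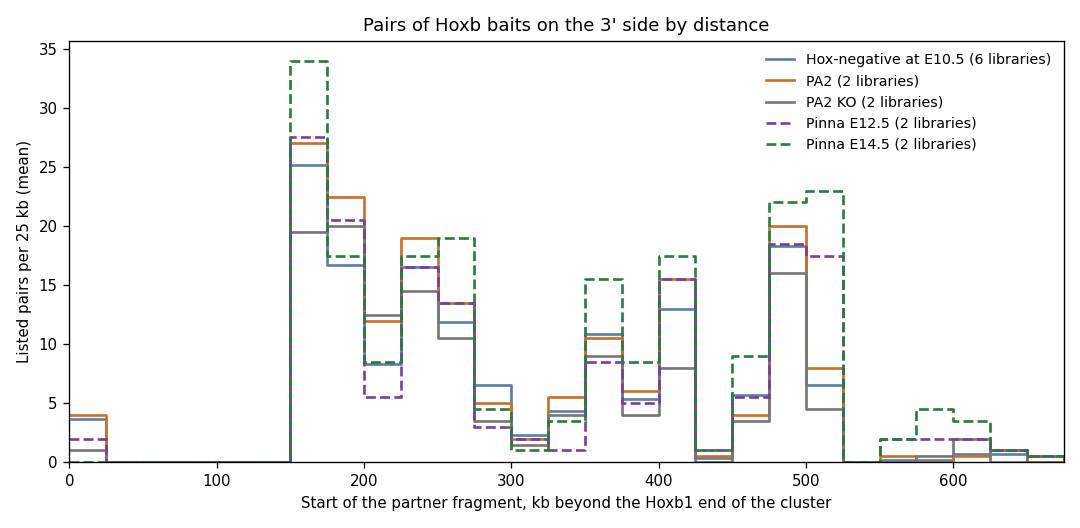
Mean number of listed pairs of Hoxb baits per 25 kb and library against the distance of the partner fragment from the Hoxb1 end of the cluster, for Hox-negative, PA2, KO PA2, E12.5 and E14.5 pinna libraries. All groups share peaks between 150 and 300 kb and near 475 kb, and pinna libraries list more pairs beyond 500 kb (23 to 38 up to 1000 kb, against 3 to 17 at E10.5).

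From E12.5 to E14.5 the pairs within the cluster nearly vanished from the lists. The E14.5 pinna listed 12 and 5 such pairs, against 59 and 63 in PA2 and 60 and 27 in the E12.5 pinna. The mean of 8.5 compared with 52.25 in these 4 libraries (exact permutation p = 0.0667, the smallest of 15 groupings) and with 64.1 in the 10 other wild-type libraries (exact permutation p = 0.0152, 66 groupings). Papain was used at E14.5 alone, so stage and dissociation cannot be told apart. The share of all same-chromosome pairs in the genome that were shorter than the Hoxb cluster was 23.8% and 20.0% in the E14.5 libraries and 13.4% to 26.2% over all 14. The merged libraries were lowest, with 13.4% in E12.5 pinna replicate 2 and 17.7% in Md replicate 1. Without them the range was 20.0% to 26.2%, and E14.5 pinna replicate 2 was the lowest. The cause of the fall within the cluster was not tested.

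In the limma contrast of E14.5 with E12.5, 13 of 388 Hoxb pairs passed (3.35%), compared with 0.901% of 161898 pairs, and all 13 were lower at E14.5. They comprised 8 pairs within the cluster and 5 on the 5′ side, and each was unlisted in both E14.5 libraries. The largest differences were those of the 5′ bait of Hoxb3 with chr11:96175369-96177529 (11.73 and 8.35 at E12.5, difference -2.99, limma adjusted p = 0.00234) and of the 3′ bait of Hoxb3 with the Hoxb8 bait (8.62 and 8.8 at E12.5, difference -2.86, limma adjusted p = 0.00247). Of the 8, 5 ended on Hoxb13. They joined it to Mir196a-1, a microRNA gene of the cluster (-2.74, limma adjusted p = 0.00576), Gm53 (-2.63), an internal Hoxb3 start site (-2.52), the Hoxb4 fragment (-2.50) and the 5′ bait of Hoxb3 (-2.71). The other called pairs joined the 5′ bait of Hoxb3 to the Hoxb8 bait (-2.52) and to 2 fragments beyond Hoxb13 (-2.75 and -2.54), the 3′ bait of Hoxb3 to the Hoxb7/Hoxb8 bait (-2.57) and to chr11:96175369-96177529 (-2.73), and the Hoxb7/Hoxb8 bait to that fragment (-2.70). With the score capped at 20 in place of asinh, 0 of the 13 passed. Without E12.5 pinna replicate 2, 21 passed.

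The other Hox clusters were counted in the same way, over their own baits. Within-cluster pairs of Hoxc were 65 to 160 per library and those of Hoxa 0 to 44, while Hoxd had 0 to 4. In the E14.5 pinna Hoxc had a mean of 82, against 143.4 in the 10 other wild-type libraries (exact permutation p = 0.0303). Hoxa had a mean of 2 against 21.1 (exact permutation p = 0.0606) and Hoxd 0 against 2 (exact permutation p = 0.0758). The log2 ratio of Hoxb to Hoxa pairs, with 1 added to each count, was 1.98 against 1.75 (exact permutation p = 0.652). Hoxa counts were 4 and 0 in the E14.5 pinna and only 5 to 15 in PA2 and the E12.5 pinna, so the added 1 weighs heavily. The ratio to Hoxa therefore cannot decide whether the fall at E14.5 was particular to Hoxb. The log2 ratio of Hoxb to Hoxc pairs, with 1 added to each count, was -3.20 in the E14.5 pinna and -1.18 in those 10 libraries (exact permutation p = 0.0152). Between Hoxa2-expressing and Hox-negative libraries, this ratio was -1.97 against -1.06 (exact permutation p = 0.0130), a call that was lost without FNP replicate 1, Mx replicate 1 or Md replicate 1 (difference -1.08 to -0.61). The ratio of Hoxb to Hoxa was 2.23 against 1.35 (exact permutation p = 0.0130), so Hoxa was lowered more than Hoxb by this measure. The ratio to Hoxd rests on counts of 0 to 4 and differed by -0.78 (exact permutation p = 0.0390).

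The KO libraries had fewer Hoxb pairs than wild-type PA2, but also shorter lists. KO cells were sorted by GFP and wild-type cells by RFP, and no Cre allele is named for the KO embryos. Genotype, reporter, sort and Cre allele thus cannot be told apart in any comparison of KO with PA2. Same-chromosome pairs were 212 and 218 in KO and 267 and 283 in PA2, a difference of -60. Per 100000 same-chromosome pairs listed, the means were 183.4 and 192.5. Pairs within the cluster were 54 and 48 against 59 and 63, and on the 3′ side 125 and 148 against 171 and 185. In each of these counts both KO libraries lay below both PA2 libraries, and with 2 against 2 no exact permutation test can pass the threshold. In limma, 6 of 388 Hoxb pairs passed (1.55%), compared with 2.16% of 161898 pairs, so Hoxb pairs were not called more often than other pairs.

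The 5 pairs lower in KO PA2 were led by the Hoxb8 bait with the fragment chr11:96780456-96785808, which has no gene. This pair scored 13.02 and 9.27 in PA2 and 6.22 to 10.85 in the 10 other wild-type libraries and was unlisted in both KO libraries (-3.09, limma adjusted p = 0.000447). The Hoxb8 bait with an Snx11 start site (chr11:96774572-96776798) was likewise unlisted in KO only (-2.90, limma adjusted p = 0.000883). The others were the Hoxb7/Hoxb8 bait with chr11:96175369-96177529 (-2.81) and with a Skap1 fragment, chr11:96625296-96633695 (-2.70), and the Hoxb8 bait with a second Skap1 fragment, chr11:96700937-96701698 (-2.51). The last pair was listed only in Md (6.05 and 7.62) and PA2 (7.18 and 5.24). It thus met the filter of 4 libraries only with PA2, where it is high, and was unlisted in FNP, Mx and the pinna as well as in KO. Higher was the 3′ bait of Hoxb3 with chr11:96178026-96181670, listed in KO at 6.28 and 6.45 and in Hox-negative libraries at 5.72 to 9.66 but not in PA2 (2.55, limma adjusted p = 0.0430). Hoxb2 did not regain its pairs with the 4 upstream fragments in KO PA2, where all were unlisted.

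Between chromosomes, 281 of the 592 listings of Hoxb baits were with the other Hox clusters. FNP listed 24 and 26 such pairs, Mx 43 and 40, and Md 22 and 40. PA2 listed 25 and 17, the E12.5 pinna 5 and 20, the E14.5 pinna 0 and 1 and KO PA2 11 and 7. The groups overlapped, with means of 32.5 ± 9.46 in Hox-negative and 11.3 ± 10.7 in Hoxa2-expressing libraries (SD, n = 6 each; exact permutation p = 0.00649). At E10.5 alone the difference was -11.5 (exact permutation p = 0.214).

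Of the 281 listings, 205 were with Hoxc, 70 with Hoxa and 6 with Hoxd. The pairs themselves varied from library to library, since 123 of 180 distinct pairs were seen in 1 library and 2 in at least 5. Hoxb2 was listed with Hoxc6, a gene of the thoracic region, in 5 libraries, at 6.41 and 18.41 in FNP, 42.56 and 11.77 in Md and 6.45 in PA2 replicate 2. Hoxb13 was listed with the Hoxc fragment of Gm27535 and Gm28011 in 5 libraries. The Hoxc6 fragment had the most listings (26, in 9 libraries), followed by Hoxc13 (22) and the Gm27535 and Gm28011 fragment (22, in 11 libraries). By bait, the 5′ bait of Hoxb3 had 53, the Hoxb7/Hoxb8 bait 44, the Hoxb8 bait 42, Hoxb2 32 and Hoxb5 3. Among interchromosomal pairs 32.4% shared their exact score with another pair of the same bait and library, against 7.51% of same-chromosome pairs, so scores between chromosomes separate pairs poorly.

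Outside the Hox clusters, 182 fragments on other chromosomes were listed with a Hoxb bait, 168 of them in 1 library. Only 2 recurred in at least 5 libraries, and both lie at Wnt1, the gene of a signal of the dorsal neural tube, on chromosome 15. The Wnt1 bait (chr15:98784886-98791552) was listed in 12 libraries with all 10 Hoxb baits between them, at a mean score of 17.3 and up to 55.19. The next bait, with the start sites of Ddn and B130046B21Rik (chr15:98794666-98808156), was listed in 10 libraries with a mean score of 12.1. Together they gave 8 and 10 pairs in FNP, 9 and 13 in Mx, 9 and 14 in Md, 12 and 6 in PA2, 10 and 10 in the E12.5 pinna, 2 and 4 in the E14.5 pinna and 0 and 0 in KO PA2. All 12 Wnt1::Cre libraries had these pairs and both KO libraries lacked them.

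A widely used Wnt1::Cre transgene carries DNA of the Wnt1 locus and is known to lie in H2afv on chromosome 11, and the labels do not name the line. The same 2 Wnt1 baits were listed with fragments within 500 kb of H2afv (chr11:6427229-6444443) in each of the 12 Wnt1::Cre libraries, with 215 to 374 pairs per library and highest scores of 833.5 to 1882, and with 0 in both KO libraries. Of their interchromosomal pairs, 96.9% were on chromosome 11. Of those beyond 20 Mb on that chromosome, 223 of 630 (35.4%) lay in the Hoxb cluster. No Hoxb bait was listed with a fragment within 500 kb of H2afv itself. The lists cannot tell the Wnt1 locus on chromosome 15 from transgene copies of its sequence. The group means of interchromosomal pairs are therefore given with and without these 2 baits. Of the 592 interchromosomal listings, 107 were with them.

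Interchromosomal pairs of Hoxb baits numbered 37 to 74 (median 60.5) in Hox-negative and 3 to 126 (median 22.5) in Hoxa2-expressing libraries, where the highest was the merged E12.5 replicate 2. The means were 57.3 ± 14.3 and 37.3 ± 45.6 (SD, n = 6 each; exact permutation p = 0.353), and without the Wnt1 locus 46.8 ± 13.3 and 30 ± 43.5 (exact permutation p = 0.426, n = 6 each). Without the 2 merged libraries the difference was -34.4 (exact permutation p = 0.0159), and -30.4 also without the Wnt1 locus (exact permutation p = 0.0159). In KO PA2 the counts were 14 and 10, against 42 and 27 in PA2, or 30 and 21 without the Wnt1 locus.

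**Figure D5:**
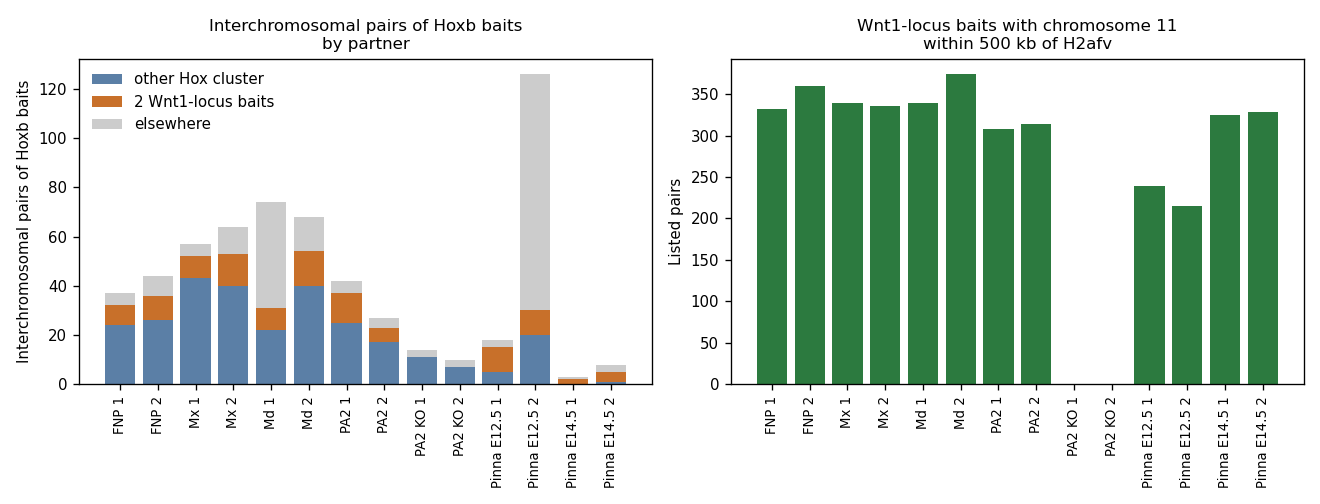
Left, number of interchromosomal pairs of Hoxb baits in each library, split into partners in other Hox clusters, at the 2 Wnt1-locus baits and elsewhere; right, number of listed pairs of these 2 Wnt1-locus baits with chromosome 11 within 500 kb of H2afv. Both KO libraries have 0 Wnt1-locus pairs in either panel, and the merged E12.5 replicate 2 stands out at 126 interchromosomal pairs.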

How the data were processed

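The authors aligned PCHi-C reads to mm10 (HiCUP), scored fragment pairs (CHiCAGO) and deposited, for each of 14 libraries, a list of fragment pairs with a CHiCAGO score of 5 or more. The submitters' processing notes name bcl2fastq 2.17 and GRCm38/mm10. The deposited scores come without read counts, so depth per library is unknown and no counting interval is given. Read counts, fitted background and lower scores were not analysed here.

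From these lists, Hoxb baits were found with the GENCODE start sites and a HindIII digest of the reference, and a pair was counted once per library. Unlisted pairs entered as 0. Counts per library were compared with exact two-sided permutation tests of the difference in means, and all pairs of the genome with limma 3.58.1 (R 4.3.3, lmFit, eBayes with trend) on asinh of the score, with Benjamini-Hochberg adjustment. The filter was a score of 5 in at least 2 of 12 wild-type libraries, or in at least 4 of 14 in the fit of 7 condition means. The permutation and limma code was tested on simulated data. Tables were made with Python 3.11.15, numpy 2.4.6, pandas 2.3.3 and the R package data.table (1.17.8), and figures with matplotlib 3.10.9.

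Named were all members, the 10 partner fragments listed in most libraries (ties by mean score), recurrent pairs with other Hox clusters, pairs past the limma threshold, and the 5 baits most similar in pair number. Members, gene lists and tests were chosen with earlier results of these data known. Adjustment of bait tests over the Hoxb baits alone, first intended, was replaced by adjustment over all baits.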

Additional observations from a re-analysis of the deposited data

Results flagged for a closer look

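In 18 sets of 6 libraries, a library was singled out where its gap to the nearest other library, divided by the range of the set, exceeded 0.625. Chance gives this in about 1 of 20 sets. The E14.5 pinna replicate 2 listed 242 pairs of Hoxb baits on the 3′ side, above the other Hoxa2-expressing libraries (167 to 186). The E12.5 pinna replicate 2, a merged library, listed 126 interchromosomal pairs of Hoxb baits, where the other Hoxa2-expressing libraries had 3 to 42. Without the Wnt1 locus it still listed 116.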

How the results depend on the processing

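A total of 18 results were recomputed in 273 alternatives, 188 of which left out 1 library; 0 reversed, 19 lost and 11 gained their side of the threshold, and 29 counts or values moved. The cause of each change was not tested. With E10.5 libraries alone, by exact permutation, no difference between PA2 and the Hox-negative libraries passed for pairs within the cluster (-11, p = 0.179), on the 5′ side (-9.33, p = 0.0714) or with other Hox clusters (-11.5, p = 0.214), for the percent on the 3′ side (8.04, p = 0.143) or within the cluster (-3.87, p = 0.214), or for the ratio of Hoxb to Hoxd (-0.72, p = 0.0714). Per 100000 same-chromosome pairs listed, the difference was -19.7 within the cluster (exact permutation p = 0.0671) and 22.7 on the 3′ side (p = 0.0411), and with equal numbers of top-scoring pairs it was -24.3 (p = 0.0606) and 28.7 (p = 0.0476). The summed score on the 3′ side differed by 299.9 (exact permutation p = 0.0433). Interchromosomal pairs passed at a score of 10 (-13.7, exact permutation p = 0.0108), with equal numbers of top-scoring pairs (-26.7, p = 0.0152) and without the 2 merged libraries (-34.4, p = 0.0159, or -30.4 without the Wnt1 locus). The KO difference of -60 was -18.5 at a score of 10, -9.10 per 100000 same-chromosome pairs listed and -536.3 in summed score.

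The 4 Hoxb pairs called by limma between Hoxa2-expressing and Hox-negative libraries became 1 with a filter of at least 4 libraries, 7 with the score capped at 20 and 64 (14 higher, 50 lower) in a fit of 6 condition means. The 4 called between PA2 and the other E10.5 libraries became 31 with a filter of at least 2 libraries, 0 with the cap and 0 after quantile normalization. The 6 called in KO became 22 with that filter and 1 with the cap, and the 13 called between E14.5 and E12.5 became 0 with the cap.

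Leaving out 1 library at a time gave differences of -40.4 to -23.6 for same-chromosome pairs (passing without PA2 replicate 2), -39.4 to -27.8 within the cluster, 18.5 to 37.3 on the 3′ side (passing without Md replicate 2), -27.7 to -21.1 on the 5′ side, -37.7 to -13.1 for interchromosomal pairs and -34.0 to -11.03 without the Wnt1 locus (both passing without E12.5 pinna replicate 2), -23.9 to -18.9 for other Hox clusters, 16.9 to 23.7 for the percent on the 3′ side and -13.1 to -8.83 within the cluster. The log2 ratios ranged from 0.77 to 1.06 against Hoxa, -1.08 to -0.61 against Hoxc and -0.96 to -0.52 against Hoxd, the last lost without any 1 of 8 libraries (FNP 2, Mx 1 and 2, Md 2, PA2 1 and 2 and E14.5 1 and 2). The KO difference ranged from -68 to -52, and 2 to 3 Hoxb baits had an exact p under 0.05. Calls by limma ranged from 0 to 7 between Hoxa2-expressing and Hox-negative libraries (0 without any 1 of the Hox-negative libraries, 1 without E12.5 pinna replicate 1, 2 without E12.5 pinna replicate 2 or E14.5 pinna replicate 1, 7 without PA2 replicate 2), 1 to 6 for PA2, 6 to 7 for KO and 14 to 21 for E14.5.

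The replicate numbers were not taken to pair the libraries: the labels give no shared litter or day, and deviations from the group means of same-numbered libraries correlated at 0.0156 to 0.302 over 21 pairs of groups, all positive but with only 7 above 0.1. With the replicate number as a block, 0 Hoxb pairs were called for PA2, 5 for KO, 12 for E14.5 and 4 between Hoxa2-expressing and Hox-negative libraries, 2 in place of 3 baits had an exact p under 0.05, and no difference in counts changed its side of the threshold. The percentages, the ratios, the totals without the Wnt1 locus and the E10.5 values per bait were chosen after seeing the data.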

Other observations

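Beyond the Hox clusters and near neighbours, 10 of 58 developmental genes known as Polycomb targets were listed with a Hoxb bait, 2 of them in at least 2 libraries. The share over all genes was not computed, so this count has no background and shows no preference for such genes. Of the 182 interchromosomal partner fragments outside the Hox clusters, 168 were likewise seen in 1 library. Lhx1, a LIM homeobox gene of the kidney and head on the same chromosome, had 2 and 1 pairs in FNP, 1 and 3 in Mx, 2 and 4 in Md, 1 and 1 in PA2, 2 and 1 in KO PA2 and 0 and 1 in the E12.5 pinna, and 0 in both E14.5 libraries. The heart gene Gata4, on chromosome 14, had pairs in 6 libraries, with 0 to 2 per library.

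The summed number of same-chromosome pairs of Hoxb baits, per 100000 listed, was most like that of the baits of Irx1 (Pearson's r = 0.912), Gm15418 (0.908), Gm15491 and Npm3 (0.896), Gm23194 (0.881) and a fragment with the start sites of Hist2h2bb, Hist2h3b, Gm20628 and Gm42743 (0.881), out of 5255 baits compared. These values describe 14 libraries that share their list length with each bait, and no test was made.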
